A study of Mus musculus with 2 samples.

Results

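A set of 10 genes of alternative macrophage activation and of the receptors that set it off were followed on 2 mouse arrays. These were the receptor chains Il4ra, Il13ra1 and Il2rg, the activation genes Arg1, Chil3, Retnla, Mrc1 and Mgl2, and Nos2 and Il10, which are read beside them. The members were the gene probes whose transcript accession names 1 of these genes. This gave 12 probes for 10 of 22910 named genes, and 8 of the 10 passed the scanner's flag for a signal well above background on 1 array or both, against 15516 of all named genes.

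The study compared primary macrophages with self-renewing macrophages, both grown from bone marrow of C57BL/6 mice and both given as male in the labels. The signals of sex-linked genes, given below, put this label in doubt for primary macrophages, so the cultures cannot be taken as matched for sex or animal. Primary macrophages were the adherent cells after 5 days with 100 ng/ml recombinant human M-CSF. Self-renewing macrophages grew out of such cultures as colonies, were kept in the same M-CSF and were taken after passage 4. The labels name no IL-4, IL-13 or LPS for either culture, and the methods state that bulk cells rather than clones were used unless said otherwise. Each cell type had 1 array, and both lay on 1 slide and were scanned together. There are no replicates, so no test was possible, and every difference below describes these 2 arrays. All 13 macrophage markers of a list, among them Csf1r, Adgre1 and Cd68, passed the background flag on both arrays, and 11 of the 13 differed by less than 2-fold.

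IL-4 and IL-13 are the cytokines of type 2 immunity. IL-4 binds the chain IL-4Rα, which pairs with the common gamma chain in the type I receptor or with IL-13Rα1 in the type II receptor, and IL-13 acts through the type II receptor. Both receptors signal through Janus kinases to the factor STAT6, and macrophages then make arginase-1, the chitinase-like protein Ym1, the resistin-like protein RELMα and lectins such as the mannose receptor. Interferon-gamma and LPS drive the contrasting state, in which inducible nitric oxide synthase uses the same arginine.

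Levels are given as log2 of the background-corrected intensity less the 75th percentile of the array's gene probes, so that 0 is that percentile and 1 unit is 2-fold. A level is compared only with the same probe on the other array. Differences are self-renewing minus primary. Where only 1 array is well above background by the scanner's flag, the difference is a bound, taken against the higher of the dim array's own signal and the lowest signal to pass that flag, which lay at -5.20 in primary and -5.08 in self-renewing macrophages. The scanner software puts an error of about 10.0% on the intensity of bright probes. Probes of the same gene differed among themselves by an SD of 0.32 log2 in their difference, over 5077 genes with several probes.

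The 3 receptor chains parted. The signal of Il4ra was higher in self-renewing macrophages, that of Il2rg was higher by less than 2-fold, and that of Il13ra1 was well above background in primary macrophages only. Of the 10 members, 1 was at least 2-fold higher in self-renewing macrophages and 3 were at least 2-fold lower, and 2 were not well above background on either array. Over all 15516 named genes above background somewhere, 4.76% passed 2-fold upwards and 8.38% downwards. Of the 6 members above background on both arrays, 1 passed 2-fold in each direction, against 4.2% of such genes upwards and 5.58% downwards. With so few members, these counts describe them and say nothing particular to them as a group.

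**Figure D1:**
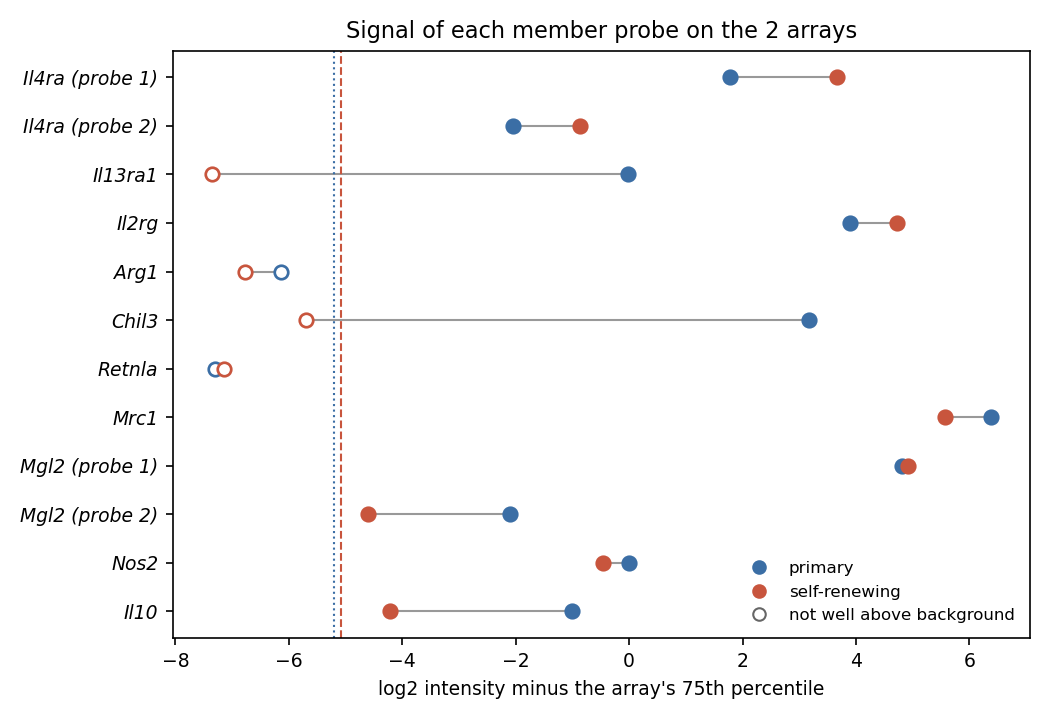
Level of each member probe on the primary (blue) and self-renewing (red) array, in log2 intensity less the array's 75th percentile, where open points are not well above background and the dotted and dashed lines are the lowest signals well above background on the primary and self-renewing array. Il13ra1 and Chil3 cross from a level of -0.02 and 3.17 to below the lines, while Il4ra moves the other way on both its probes.

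Il4ra encodes IL-4Rα, the chain shared by both receptors. Its brighter probe read an intensity of 1482 for primary and 5681 for self-renewing macrophages, which are levels of 1.77 and 3.67. The difference was 1.90 log2, or 3.73-fold higher in self-renewing macrophages. A second, dimmer probe stood at -2.04 and -0.86, a difference of 1.18 log2 or 2.26-fold in the same direction. Thus both probes were at least 2-fold higher, though by unequal amounts. With a normexp background correction the dimmer probe was at 0.93 log2, which is under 2-fold. Among 14003 named genes well above background on both arrays, 175 had a larger positive difference than the brighter probe of Il4ra.

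Il13ra1 encodes the chain that makes the type II receptor with IL-4Rα. It was measured by 1 probe, with an intensity of 427 in primary macrophages, a level of -0.02. In self-renewing macrophages its intensity was 2.72, of which the scanner's own error was 100%, and it was not well above background. The gene was thus at least 33.3-fold lower in self-renewing macrophages by these signals, a bound of -5.06 log2. With a normexp background correction the bound was smaller, at -2.93 log2. Among the 15516 named genes, 7.62% passed the flag in primary macrophages only.

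Il2rg encodes the common gamma chain, which is also part of the receptors for IL-2, IL-7, IL-9, IL-15 and IL-21. Its 1 probe stood at 3.89 in primary and 4.72 in self-renewing macrophages, 1.77-fold higher in the latter at 0.83 log2. This is under 2-fold, although 826 of the 14003 genes had a larger positive difference.

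Il2rg and Il13ra1 lie on the X chromosome. Xist, which coats the inactive X, passed the background flag in primary macrophages alone, with a bound of -5.25 log2. Of 4 Y-linked genes, 0 passed it there and 4 did in self-renewing macrophages, although male is the labelled sex of both. Xist and these Y-linked genes differ as they would between female and male RNA, so the label of the primary culture is in doubt. Sex, and with it the animals used, then differs along with cell type. Without replicates these cannot be told apart for any member or list, X-linked or not. The part of sex or animal in the differences was not tested. Over 506 X-linked genes the median difference was -0.07 log2. Of these, 24 passed 2-fold upwards and 56, or 11.1%, downwards, Il13ra1 among them. Over all 15516 named genes, 4.76% passed 2-fold upwards and 8.38% downwards.

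In the wider family, 15 genes were listed of receptors that use the common gamma chain, Il4ra among them, of their ligands and of the related receptors for IL-13 and TSLP, and 9 passed the flag. Of these, 3 were higher by 2-fold or more, namely the member Il4ra itself, Il21r and the cytokine gene Tslp, and 1 was lower. The median was 0.42 log2 against -0.02 log2 over all named genes. Il21r, the IL-21 receptor, was 4.17-fold higher at 2.06 log2, with levels of 0.33 and 2.39. Tslp, an epithelial cytokine whose receptor pairs IL-7Rα with another chain in place of the common gamma chain, was well above background in self-renewing macrophages only, with a bound of 1.59 log2. Il7r, the IL-7 receptor, went the other way and was 7.89-fold lower, with levels of 4.72 and 1.74. Il2ra and Il2rb, the other chains of the IL-2 receptor, and Il13ra2, the decoy receptor for IL-13, were not well above background on either array.

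The chain of signalling below the receptors moved little. Of 22 genes of IL-4 and IL-13 signalling, 20 were well above background, all on both arrays, with a median difference of 0.03 log2. Irs2, the adaptor that couples IL-4Rα to phosphoinositide 3-kinase, was at least 2-fold higher, with levels of 1.05 and 2.51 and a difference of 1.46 log2, and 0 genes were at least 2-fold lower. The kinases Jak1 and Jak3 and the factor Stat6, picked out here after their values were seen, differed by 0.03, -0.12 and 0.31 log2. The ligand genes Il4 and Il13 were dim on both arrays, at -3.51 and -3.61 in primary and -4.19 and -4.25 in self-renewing macrophages.

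The genes of alternative activation did not move as 1 group. Chil3 was well above background in primary macrophages only, Mrc1 and the bright probe of Mgl2 were well above background on both arrays and within 2-fold, and Arg1 and Retnla were above background on neither. The promoters of Chil3 and Retnla are shown as those of secreted products of alternative activation that were and were not above background, and those of Il4ra and Il13ra1 because they are the partner chains that moved in opposite directions. Each is the 250 bases before the annotated start, read on the gene's strand from RefSeq on GRCm38.p6, at chr3:106167565-106167814 on the minus strand, chr16:48842359-48842608 on the plus strand, chr7:125552021-125552270 on the plus strand and chrX:36111858-36112107 on the plus strand. The table held 7 of the 10 members. Capitals mark matches on either strand to the STAT6 motif, which is TTC and GAA with 4 bases between them, the general STAT motif TTCNNNGAA, the PU.1 motif GAGGAAGT, the C/EBP motif TTGCNNAA and the TATA box TATAAA, none of which overlap each other here.
Chil3: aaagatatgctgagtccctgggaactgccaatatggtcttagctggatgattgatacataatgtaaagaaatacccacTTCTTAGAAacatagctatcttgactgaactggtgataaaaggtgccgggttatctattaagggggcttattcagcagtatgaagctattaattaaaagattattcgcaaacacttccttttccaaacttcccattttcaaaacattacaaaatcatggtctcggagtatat
Retnla: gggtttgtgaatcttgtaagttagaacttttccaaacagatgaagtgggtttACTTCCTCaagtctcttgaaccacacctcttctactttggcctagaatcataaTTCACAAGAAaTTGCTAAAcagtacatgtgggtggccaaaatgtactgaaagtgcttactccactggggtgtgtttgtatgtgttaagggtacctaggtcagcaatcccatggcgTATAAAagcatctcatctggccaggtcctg
Il4ra: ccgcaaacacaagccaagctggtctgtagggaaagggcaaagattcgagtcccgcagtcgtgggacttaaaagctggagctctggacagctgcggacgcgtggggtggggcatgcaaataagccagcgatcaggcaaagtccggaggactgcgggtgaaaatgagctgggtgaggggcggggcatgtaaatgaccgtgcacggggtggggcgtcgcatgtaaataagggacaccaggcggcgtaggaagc
Il13ra1: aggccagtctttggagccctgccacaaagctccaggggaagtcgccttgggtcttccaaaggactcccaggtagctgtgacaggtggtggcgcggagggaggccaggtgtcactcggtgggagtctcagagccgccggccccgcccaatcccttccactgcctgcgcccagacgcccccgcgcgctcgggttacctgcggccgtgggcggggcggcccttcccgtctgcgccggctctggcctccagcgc
Retnla held 1 match each to the STAT6, PU.1, C/EBP and TATA motifs, with the STAT6 match TTCACAAGAA from 145 to 136 bases before the start. Chil3 held 1 match, to the general STAT motif, TTCTTAGAA from 172 to 164 bases before the start. Il4ra and Il13ra1 held 0 in this window, as did Il2rg, Mgl2 and Mrc1. Of 32817 promoter windows of the same length, 5.85% held the STAT6 motif, 7.01% the general STAT motif, 2.44% the PU.1 motif, 9.57% the C/EBP motif and 12.4% the TATA motif. The GC content was 70.8% for Il13ra1 and 59.6% for Il4ra, against 36.4% for Chil3 and 42.8% for Retnla, where the median window held 52.4%. A match is a run of letters and not a measured site.

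Chil3 encodes Ym1, a secreted chitinase-like protein. Its 1 probe had an intensity of 3914 in primary macrophages, a level of 3.17, and was not well above background in self-renewing macrophages. It was at least 306-fold lower there by these signals, a bound of -8.26 log2. With a normexp background correction the bound was smaller, at -5.86 log2. Ym1 is also made by monocytes and by neutrophil precursors in bone marrow. Of a list of 15 genes of neutrophils and their precursors, 13 were well above background, 9 were lower by 2-fold or more in self-renewing macrophages and 0 higher, with a range from -10.96 to 0.47 log2. S100a8, S100a9, Ltf and Ngp were well above background in primary macrophages only, while Csf3r and Elane differed by 0.08 and -0.47 log2. The summed intensity of the list was 287 times the 75th percentile in primary and 182 times in self-renewing macrophages. Csf3r added most to both sums, and without it they were 121 and 6.78 times the percentile. Of the 7 monocyte markers other than Chil3, Ccr2, Plac8, F13a1 and Fn1 were at least 2-fold lower and Ly6c2 was 5.67-fold higher. A second probe of Fn1 went the other way, at 1.44 log2. The summed intensity of the 7 was 28.9 times the percentile in primary and 67.0 times in self-renewing macrophages. Ly6c2 added most to these sums, and without it they were 17.3 and 1.29 times, in the opposite order. The part of these cells in the Chil3 signal was not tested, and in whole cultures fewer cells of a type cannot be told apart from less RNA per cell.

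Retnla, which encodes RELMα, and Arg1, which encodes arginase-1, had 1 probe each. The intensity of Retnla was 2.74 in primary and 3.14 in self-renewing macrophages, and that of Arg1 was 6.12 and 4.09. On both arrays these lie under the lowest intensities well above background, 11.8 and 13.2, so neither a level nor a fold is given. Of all named genes with a probe, 32.3% were not well above background on either array.

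Mrc1 encodes the mannose receptor CD206, which takes up glycoproteins with exposed mannose. Its probe had an intensity of 36037 in primary and 21210 in self-renewing macrophages. The levels of 6.38 and 5.57 gave a difference of -0.81 log2, or 1.75-fold lower in self-renewing macrophages. This stayed under 2-fold, and 1060 of the 14003 genes had a more negative difference.

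Mgl2 encodes CD301b, a lectin that binds galactose and N-acetylgalactosamine, and its 2 probes disagreed. The bright probe, averaged over 9 spots, stood at 4.82 in primary and 4.92 in self-renewing macrophages, with an SD between spots of 0.04 and 0.05. Its spots ranged from 4.76 to 4.87 and from 4.86 to 4.98, so that the ranges overlap and the difference of 0.10 log2 is 1.07-fold. The dim probe, in 1 spot, stood at -2.10 and -4.60, a difference of -2.50 log2 or 5.66-fold lower, and -0.96 log2 with a normexp background correction. On the self-renewing array it cleared the lowest flagged signal by 0.48 log2. The direction of Mgl2 is therefore not fixed by these arrays. Which transcripts the probes detect is not given in the sources used here. Clec10a, the close relative of Mgl2 that encodes CD301a and lies next to it, was 3.85-fold lower, with levels of 3.17 and 1.22, and its 2 probes gave -1.94 and -1.95 log2.

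**Figure D2:**
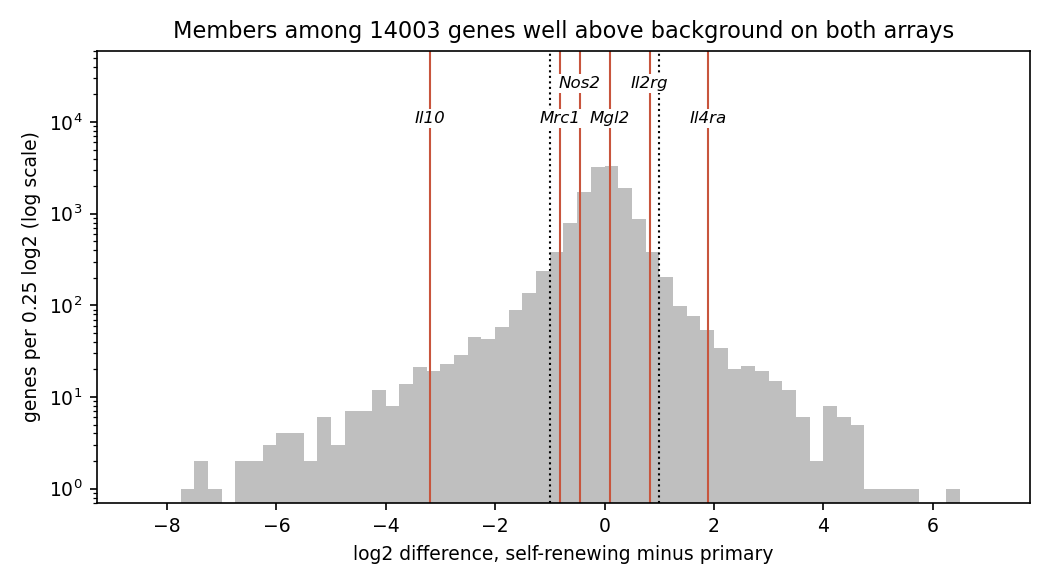
Distribution of the log2 difference, self-renewing minus primary, over the 14003 named genes well above background on both arrays, with the number of genes per 0.25 log2 on a log axis and dotted lines at 2-fold. Red lines mark the 6 members measured on both arrays, of which Il10 and Il4ra lie outside the 2-fold lines and Mrc1, Nos2, Mgl2 and Il2rg inside.

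Among 18 relatives of the members with a probe, 11 passed the flag, with 1 higher by 2-fold or more, 3 lower and a median of -0.47 log2. Of the chitinase family, Chil1 and Chil4 were well above background in primary macrophages only, with bounds of -1.55 and -0.98 log2, from dim levels of -3.54 and -4.10. Chit1, the active chitinase of macrophages, and Ovgp1 differed by 0.39 and -0.47 log2. Of the resistin family, Retn was dim at -3.82 and -3.76, and Retnlb and Retnlg were not well above background. Of the mannose receptor family, Pla2r1 had a bound of -0.83 log2 and Mrc2 and Ly75 were above background on neither array. The hepatic lectins Asgr1 and Asgr2 differed by -0.11 and -0.28 log2. Among the nitric oxide synthases, Nos3 was 3.16-fold lower, and Nos1 was well above background in self-renewing macrophages only with a bound of 1.51 log2, while the second arginase, Arg2, was above background on neither.

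A wider list of 31 genes, drawn up here under the name of other genes induced by IL-4, held 24 well above background. The labels name no IL-4, so induction of each listed gene by IL-4 was not tested. Of the 24, 4 were at least 2-fold higher and 9 lower, with a median of -0.59 log2. The highest were Pdgfc, a growth factor, at 3.04 log2, Slc7a2, a transporter of arginine, at 1.91 log2, the transglutaminase Tgm2 at 1.51 log2 and the chemokine Ccl24 at 1.12 log2. The lowest were F13a1, the A chain of coagulation factor XIII, and Ch25h, cholesterol 25-hydroxylase, both with bounds, of -7.64 and -4.92 log2. They were followed by the kinase Matk at -3.93 log2 and by Il1r2, the decoy receptor for interleukin-1, with a bound of -3.40 log2. A second probe of F13a1 and of Il1r2 gave smaller bounds of -0.45 and -0.74 log2, and the second Matk probe gave -5.77 log2. F13a1 is also in the list of monocyte markers, and the part of monocytes in it was not tested.

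Of 17 transcription factors and regulators tied to alternative activation, all 17 were well above background, with a median of 0.03 log2. Irf4, a factor that IL-4 induces, was well above background in primary macrophages only by its brighter probe, at -1.23, with a bound of -3.85 log2, and its second probe had a bound of -1.24 log2. Pparg, the nuclear receptor PPARγ, stood at 3.53 and 1.48 and was 4.14-fold lower. In the other direction, Epas1, which encodes HIF-2α, was 5.67-fold higher at levels of -0.43 and 2.08, and Trib1, a pseudokinase, was 3.18-fold higher.

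**Figure D3:**
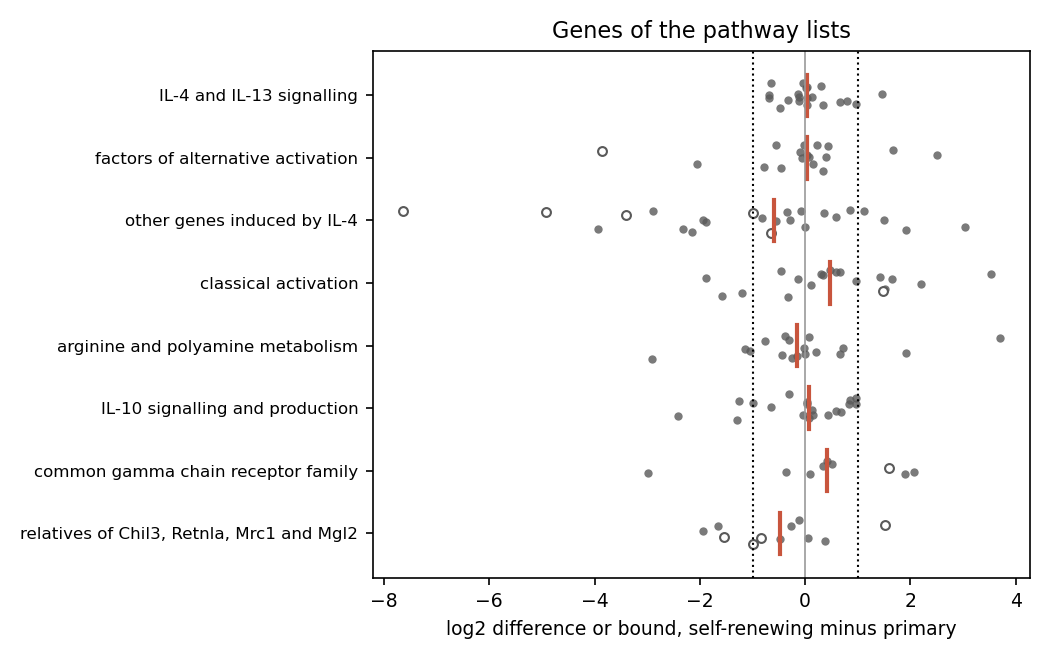
Log2 difference or bound, self-renewing minus primary, for each gene of the 8 pathway lists, where open points are bounds, red bars are medians and dotted lines mark 2-fold. The medians lie between -0.59 log2 for the other genes induced by IL-4 and 0.47 log2 for classical activation.

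Nos2 encodes inducible nitric oxide synthase, the mark of classical activation in the mouse. It had 1 probe, with an intensity of 431 in primary and 325 in self-renewing macrophages. The levels of -0.01 and -0.46 gave -0.45 log2, or 1.36-fold lower, inside the 2-fold limit. Among 26 other genes of classical activation with a probe, 19 were well above background, 6 were higher by 2-fold or more and 3 lower, and the median was 0.47 log2. The highest were Acod1, the enzyme that makes itaconate, at 3.53 log2, the formyl peptide receptor Fpr2 at 2.19 log2, Tnf at 1.65 log2 and Cxcl10 at 1.52 log2. The scavenger receptor Marco, the chemokine Ccl5 and the ectoenzyme Cd38 were lower, at -1.88, -1.58 and -1.19 log2. Il6, Il12a, Il23a, Il1a, Cxcl9, Ido1 and Slamf1 were not well above background on either array.

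Arginase and nitric oxide synthase share arginine, so the genes that supply and use it were listed too. Of 17 such genes well above background, 2 were at least 2-fold higher and 3 lower, with a median of -0.16 log2. Ass1, argininosuccinate synthase, which rebuilds arginine from citrulline, stood at 0.76 and 4.46 and was higher in self-renewing macrophages by 3.70 log2. Slc7a2 was 3.75-fold higher from a dim level of -4.25. Asl, the next enzyme after Ass1, differed by -0.01 log2, chosen here after its value was seen. Ddah2, which breaks down methylated arginines that inhibit nitric oxide synthases, was 7.47-fold lower, and the spermine synthase Sms and the antizyme inhibitor Azin1 were 2.20-fold and 2.05-fold lower.

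Il10 encodes the anti-inflammatory cytokine interleukin-10. Its 1 probe had an intensity of 215 in primary and 24.1 in self-renewing macrophages. The levels of -1.01 and -4.21 gave -3.20 log2, or 9.18-fold lower in self-renewing macrophages, where the probe cleared the lowest such signal by 0.87 log2. Of the 14003 genes, 104 had a more negative difference. With a normexp background correction the difference of Il10 was smaller, at -1.62 log2. Of 19 genes of IL-10 signalling and production, all 19 were well above background on both arrays, 0 were at least 2-fold higher and 3 lower, and the median was 0.06 log2. The 3 were Dusp2, a MAP kinase phosphatase, at -2.41 log2, Nfil3 at -1.30 log2 and Sphk1, sphingosine kinase, at -1.27 log2. Both chains of the IL-10 receptor, Il10ra and Il10rb, differed by less than 2-fold, at 0.82 and 0.59 log2, chosen here after their values were seen.

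Gene order on GRCm38.p6 was used to set members beside their 4 nearest measured genes on each side. Il4ra lies next to Il21r, and these 2 genes, at 1.90 and 2.06 log2, stood apart from the other 7 neighbours, which lay between -0.45 and 0.35 log2. Around Il13ra1 the 8 neighbours lay between -1.30 and 0.57 log2, against its bound of -5.06 log2, with Dock11 on one side at 0.11 and Lonrf3 on the other at -1.30. Around Chil3 the lowest neighbour, 2010016I18Rik, had a bound of -1.90 log2. Around Il10 the neighbours lay between -0.39 and 1.66 log2, and Il19 and Il24, cytokines of the same family, differed by -0.39 and -0.33 log2.

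**Figure D4:**
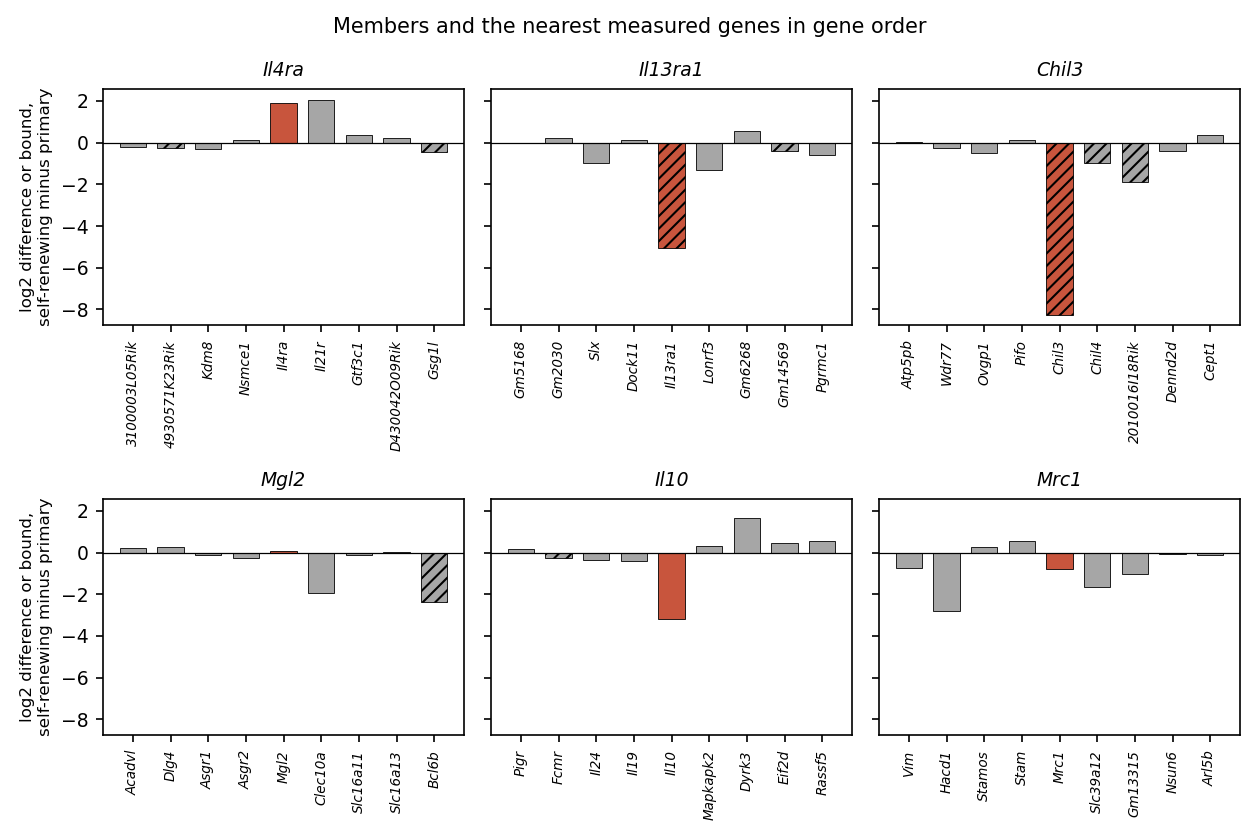
Log2 difference or bound, self-renewing minus primary, of 6 members (red) and of the 4 nearest measured genes on each side (grey) in gene order, with hatched bars for bounds. Il21r stands beside Il4ra at 2.06 log2, whereas the lowest neighbour of Il13ra1 is at -1.30 log2.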

How the data were processed

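Total RNA of 1 sample per cell type was labelled with Cy3 and hybridised to SurePrint G3 mouse arrays. The authors deposited the intensity of each spot from Agilent Feature Extraction 11.5.1.1, background-subtracted and detrended within the array and not scaled between arrays, with its flags, and a table of the same intensities times 1 constant per array, 1.07 for primary and 1.19 for self-renewing macrophages. The normalization is not given in the sources used here.

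Here 112 of 59305 gene spots with an outlier flag on either array were left out, spots of a probe were averaged on the log2 scale, and each array was scaled to its 75th percentile, an intensity of 434 in primary and 446 in self-renewing macrophages. Of 56598 probes, 58.3% were named through accessions in a RefSeq table of GRCm38.p6. The array design uses an earlier build, so no probe coordinates are given. No spot was saturated (0 spots), and 34808 and 33095 probes were well above background. A probe in several spots counted as such where at least 50% of its spots did. A gene was represented by its brightest probe. The number of arrays limits the precision. The threshold of 2-fold was chosen here.

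The members and gene lists were chosen with earlier results of these data known. Text names all members, list genes past 2-fold up to 4 in each direction, and all detected relatives of the members. Others were chosen after their values were seen. The script that makes the fold calls was tested on simulated data with known changes. That checks the script only and not the calls on these arrays, which have no replicates. Alternatives were quantile normalization, normexp (offset 50), scaling by the median or 75th percentile of detected probes, the authors' values, other filters, the mean over probes and thresholds of 1.5-fold and 4-fold. Computation used limma 3.58.1 under R 4.3.3, and pandas 2.3.3 and numpy 2.4.6 under Python 3.11.15, with figures by matplotlib 3.10.9. The flags came from the deposited files.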

Additional observations from a re-analysis of the deposited data

How the results depend on the processing

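No paired analysis was possible because only 1 array was made per group. Shifts under 0.32 log2, the spread of a gene's probes, were not counted. The members kept their direction under all alternatives run, except Mgl2, which was at -1.20 log2 with the mean over its probes, where Il4ra was at 1.54 log2. With normexp, which uses the median spot signal and by construction draws dim probes together, Il13ra1 was at -2.93, Chil3 at -5.86 and Il10 at -1.62 log2, and the dim probe of Mgl2 was at -0.96 log2. With no filter on background, Il13ra1 was at -7.33 and Chil3 at -8.86 log2. The number of members at least 2-fold higher was 2 with the authors' values, which raise all genes by 0.19 log2, and the second was Il2rg at 1.02 log2. At 1.5-fold it was 2 and at 4-fold 0. The number lower was 1 with only probes well above background on both arrays, which leaves out Il13ra1 and Chil3 by construction, and 4 with the mean over probes, where Mgl2 joins. Over all named genes, 429 were higher and 750 lower with normexp, 1192 and 2336 with no filter, 1690 and 2342 at 1.5-fold, and 218 and 554 at 4-fold, against 739 and 1300. With only probes well above background on both arrays 782 were lower. The share of these genes that was higher was 49.2% with the authors' values against 36.2%. Of the marker lists, 14 medians and 18 counts moved, and 66 medians and 142 counts did not. With only probes above background on both arrays, the counts lower were 4 for neutrophils against 9, 1 for monocytes against 5 and 1 for eosinophils against 3. No median of the 8 pathway lists moved by as much as the SD between probes, a limit larger than several of these medians themselves. That of the other genes induced by IL-4 was -0.28 log2 with only probes above background on both arrays, against -0.59. The median of the arginine list changed sign, at 0.03 log2 with the authors' values against -0.16. Of the counts of genes past 2-fold in these lists, 10 moved by over 1.5 times under an alternative and 118 did not. Among the 10 were the higher genes of the IL-10 list, 4 with the authors' values against 0. The planned use of a gene name column was not run, since the scanner files used here have none.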

Other observations

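Marker genes of other cells were read on the same arrays. For basophils and mast cells, which make IL-4 in type 2 immunity, 6 of 10 genes were well above background, 1 was at least 2-fold lower (Kit, with a bound of -1.09 log2) and 0 higher. Fcer1a, Prss34, Tpsb2 and Il4 passed the flag on both arrays and Mcpt8 and Kit in primary macrophages only, while Cpa3, Ms4a2, Gata2 and Mcpt4 passed on neither. The count lower was 0 with normexp, quantile normalization, the authors' values or probes above background on both arrays, and 3 with no filter. For eosinophils, 7 of 8 were well above background and 3 were lower by 2-fold or more. The 3 were Siglecf at -3.25 log2, Prg2 with a bound of -2.60 log2 and Ear1 with a bound of -2.21 log2. Prg3, Ccr3, Il5ra and Ear6 passed the flag on both arrays, at -0.67, -0.01, 0.09 and 0.24 log2, and Epx passed on neither. The median of the list was -0.67 log2, and -0.01 log2 with only probes above background on both arrays. For dendritic cells, 7 of 10 were well above background, and Itgax, Batf3 and Kmo were lower at -3.16, -1.79 and -1.04 log2, while Xcr1 and Clec9a were above background on neither array. Of the B cell list, Cd79b was well above background in primary macrophages only with a bound of -5.77 log2. Of the T and NK cell list, 5 of 9 genes with a probe passed the flag on both arrays. Nkg7 was lower at -1.95 log2, while Cd3e, Cd4, Cd3d and Lck lay between -0.06 and 0.27 log2, and Cd3g, Cd8a, Ncr1 and Il2rb passed on neither array. Of the erythroid list, Hba-a1 was lower at -1.72 log2. Of the stromal list, 5 of 10 genes passed the flag and 0 passed 2-fold. Col1a2, Kdr and Pecam1 passed the flag on both arrays and Cxcl12 and Cdh5 in primary macrophages only, while Col1a1, Col3a1, Dcn, Lum and Pdgfrb passed on neither.

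Mertk, a receptor for apoptotic cells, and Fcgr1, a high-affinity Fc receptor, were the 2 macrophage markers past 2-fold, at 2.23 and -1.76 log2.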
